A study of [Candida] boidinii with 12 samples.

Results

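A set of 64 genes of the methylotrophic yeast Candida boidinii stood lower in the engineered strain LA001-14 than in its wild-type parent, on glucose and on methanol alike, with a response to the carbon source kept within a set limit in both strains. The 64 genes were chosen by their measured levels: of 5712 rows, 5034 had a mean of at least 50 reads over the 12 libraries (the introduced gene LDH left out), and a member had a log2 strain difference of -0.8 or lower on both carbon sources and a log2 methanol response between -0.8 and 0.8 in both strains. Each log2 value used group means of CPM (counts scaled to the library's total) plus 1 CPM and was taken relative to its median over the 5034 rows. The values that chose the members are therefore given as a description, and no test of them is reported.

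RNA sequencing covered 4 groups of 3 libraries: wild type CICC#33029 on 2% (w/v) glucose (YPD), wild type on 2% (w/v) methanol (YPM), LA001-14 on glucose and LA001-14 on methanol, all sampled at 6 h. LA001-14 was made from the same wild type and carries PENO1-BtL-LDH-TTEF2, a lactate dehydrogenase cassette, and PTDH3-KanR-TTEF2, a kanamycin resistance cassette, each at random chromosomal loci. It is a single engineered strain, so the cassettes, their insertion sites and any other difference that arose with the strain cannot be told apart. The replicates are labelled biological, and nothing says whether they came from separate cultures, so spreads are those between these libraries. As these are bulk cultures, fewer cells with a transcript and less of it per cell cannot be told apart.

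C. boidinii is a yeast that can use methanol as a carbon source by oxidising it in peroxisomes, and glucose is known to repress its methanol genes. Lactate dehydrogenase reduces pyruvate, the end product of glycolysis, to lactate, and ENO1 encodes the glycolytic enzyme enolase. The files do not pair the native identifiers, which begin with CB, with gene names, and no sequence or annotation was used here, so members are given by identifier and coding length, without function or position.

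Totals ranged from 8045977 to 14107813 reads per library. LDH had 16132 to 76402 reads in each LA001-14 library and 0 or 1 read in each wild-type library, so the libraries matched their strain labels. Replicate 1 of wild type on glucose stood apart from its group: over all rows its chi-square per degree of freedom was 25.03 against replicate 2 and 32.3 against replicate 3, while that pair gave 5.59. Among the members alone the same 3 values were 34.2, 26.5 and 4.76. In 49 of the 64 members this library was the lowest of the wild-type glucose libraries, with a median log2 difference of -0.28 from the other two.

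Levels below are CPM scaled by TMM, a normalization that sets aside the most extreme genes. This scaling and the centring in the choice matter: without subtracting the median, which was 0.22 for the strain difference on glucose and 0.27 on methanol, 28 genes would have met the same limits. A strain difference is thus relative to the typical gene of the same libraries.

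Lower levels on both carbon sources were met by 171 of the 5034 rows, and the limits on carbon response left 64 of them. Of the 107 others, 47 were outside the limits in wild type alone, 16 in LA001-14 alone and 44 in both strains. Either limit on its own was far less strict, with 589 rows at or below -0.8 on glucose and 687 on methanol. With the same limits in the opposite direction, the limits gave 34 rows with higher levels in LA001-14.

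**Figure D1:**
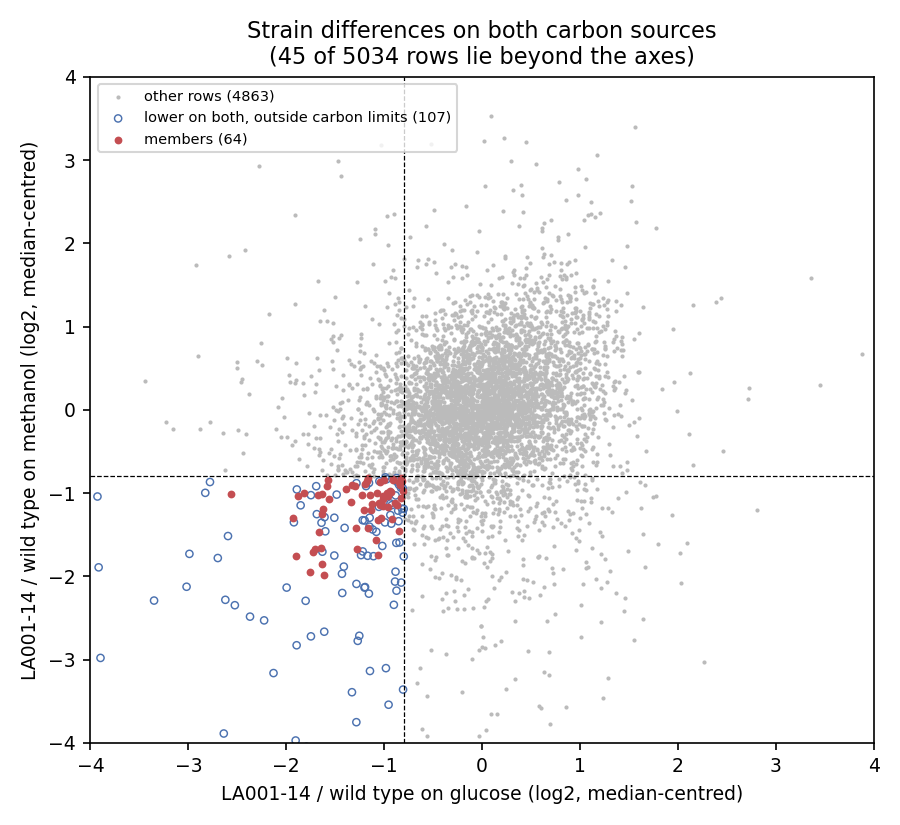
Log2 difference between LA001-14 and wild type on glucose (horizontal) and on methanol (vertical), each relative to its median over 5034 rows; dashed lines mark -0.8. The 64 members (filled) share the lower left corner with 107 rows that were outside the carbon limits (open), and 45 rows lie beyond the axes.

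The members were lower in LA001-14 by about 2-fold in the middle of the set and by up to 6.72-fold at its end. By edgeR's fit the median member was 2.29-fold lower on glucose (interquartile range 2.00 to 3.16, full range 1.78 to 6.72) and 2.15-fold lower on methanol (interquartile range 1.98 to 2.56, full range 1.77 to 4.56). At least 2-fold lower on both carbon sources were 38 members, while 10 reached this on glucose alone, 9 on methanol alone and 7 on neither. A 3-fold difference was reached by 19 members on glucose and by 10 on methanol. The median fitted log2 change over all 5466 genes that passed edgeR's filter and were tested was 0.012 on glucose and 0.005 on methanol.

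All 64 members were called lower in LA001-14 on each carbon source by edgeR's quasi-likelihood test at an adjusted p under 0.05. Over all 5466 genes the same call was made for 31.7% on glucose and 32.9% on methanol. Since the choice used these contrasts, the members' count carries no further information. The 3 LA001-14 libraries lay below the 3 wild-type libraries in 61 members on glucose and in 64 on methanol, where 32.6% and 37.0% of the 5034 rows did so. Every one of the 6 LA001-14 libraries lay below every one of the 6 wild-type libraries in 54 members, against 6.89% of the rows. Without replicate 1 of wild type on glucose the counts were 64 on glucose and 62 over both carbon sources. Leaving out a library makes such a separation easier for any row, and the share of all rows was not counted there, so the rise is not interpreted.

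Together the members held a small share of the transcripts, and that share was lower in LA001-14 on both carbon sources. They took 0.666%, 0.743% and 0.718% of the reads in the wild-type glucose libraries and 0.772%, 0.740% and 0.773% in the wild-type methanol libraries. In LA001-14 the shares were 0.356%, 0.350% and 0.372% on glucose and 0.452%, 0.434% and 0.443% on methanol. No LA001-14 library reached the share of any wild-type library, and within LA001-14 every methanol library was above every glucose library. The group means were 0.709% ± 0.039, 0.761% ± 0.019, 0.359% ± 0.011 and 0.443% ± 0.0091 (SD, n = 3 each, in the same order).

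**Figure D2:**
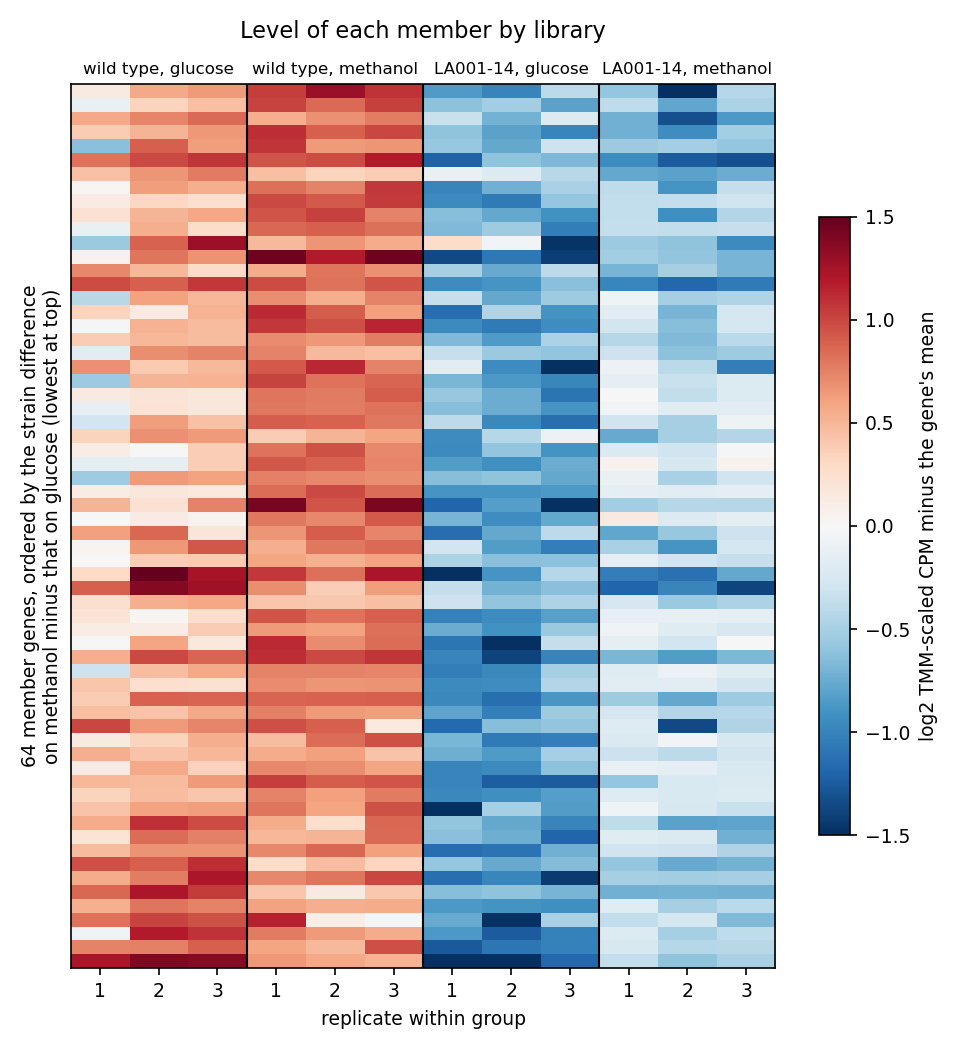
Level of each of the 64 members (rows) in the 12 libraries (columns), as log2 TMM-scaled CPM minus the gene's own mean, colour limited to between -1.5 and 1.5. Wild-type libraries are mostly above and LA001-14 libraries mostly below each gene's mean, the lowest group is LA001-14 on glucose for 51 members, and replicate 1 of wild type on glucose is paler than the other two.

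The choice set the wild-type groups above those of LA001-14 on the same carbon source, and the order of the carbon sources varied between members. Wild type on methanol was the highest group for 46 members and wild type on glucose for 18. The lowest group was LA001-14 on glucose for 51 members and LA001-14 on methanol for 13. These counts were not made over all rows, and the wild-type glucose means include replicate 1, which was low in most members. Ranked by its larger (less negative) strain difference, the set was led by CB3071.t1 and CB2469.t1.

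CB3071.t1 (858 bases) led this ranking. Its levels were 138, 129.6 and 145 CPM in wild type on glucose and 138, 123 and 135 CPM in wild type on methanol. In LA001-14 they were 36.3, 37.9 and 45.3 CPM on glucose and 35.6, 30.9 and 33.6 CPM on methanol. The strains were separated by a wide gap, while the carbon sources overlapped in wild type and lay next to each other in LA001-14. CB3071.t1 was 3.46-fold lower on glucose (log2 -1.79, SE 0.11) and 3.94-fold lower on methanol (log2 -1.98, SE 0.076).

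CB2469.t1 (909 bases) came next in the same ranking. It stood at 103, 140.1 and 129.4 CPM in wild type on glucose and at 152, 139 and 148 CPM on methanol. The LA001-14 libraries had 35.5, 26.8 and 35.3 CPM on glucose and 43.8, 39.5 and 44.1 CPM on methanol. Wild-type levels on the carbon sources overlapped, and those of LA001-14 did not, with methanol above glucose. The difference was 3.82-fold on glucose (log2 -1.93, SE 0.19) and 3.44-fold on methanol (log2 -1.78, SE 0.062).

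The largest difference on methanol was that of CB0149.t1 (1638 bases), a gene of low level. Wild type had 16.2, 18.2 and 19.3 CPM on glucose and 17.6, 18.1 and 20.98 CPM on methanol, and LA001-14 had 3.97, 6.03 and 5.73 CPM on glucose and 4.76, 3.86 and 3.67 CPM on methanol. These are 33 to 208 reads per library, and the strains did not overlap. Its log2 difference was -1.76 (SE 0.20) on glucose and -2.19 (SE 0.13) on methanol.

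The largest difference on glucose belonged to CB2136.t1 (1704 bases), which also had the most unequal pair of differences in the set. It stood at 33.9, 37.8 and 37.3 CPM in wild type on glucose and at 22.7, 21.7 and 20.8 CPM on methanol. In LA001-14 the order of the carbon sources was turned round, with 5.04, 4.82 and 6.38 CPM on glucose and 11.3, 9.49 and 10.3 CPM on methanol. All 4 groups were separate from one another. CB2136.t1 was 6.72-fold lower on glucose (log2 -2.75, SE 0.13) and 2.08-fold lower on methanol (log2 -1.06, SE 0.080). CB4652.t1 (1377 bases), next on glucose in the values used for the choice, was 4.08-fold lower there (log2 -2.03, SE 0.23) and 2.55-fold lower on methanol (log2 -1.35, SE 0.082).

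**Figure D3:**
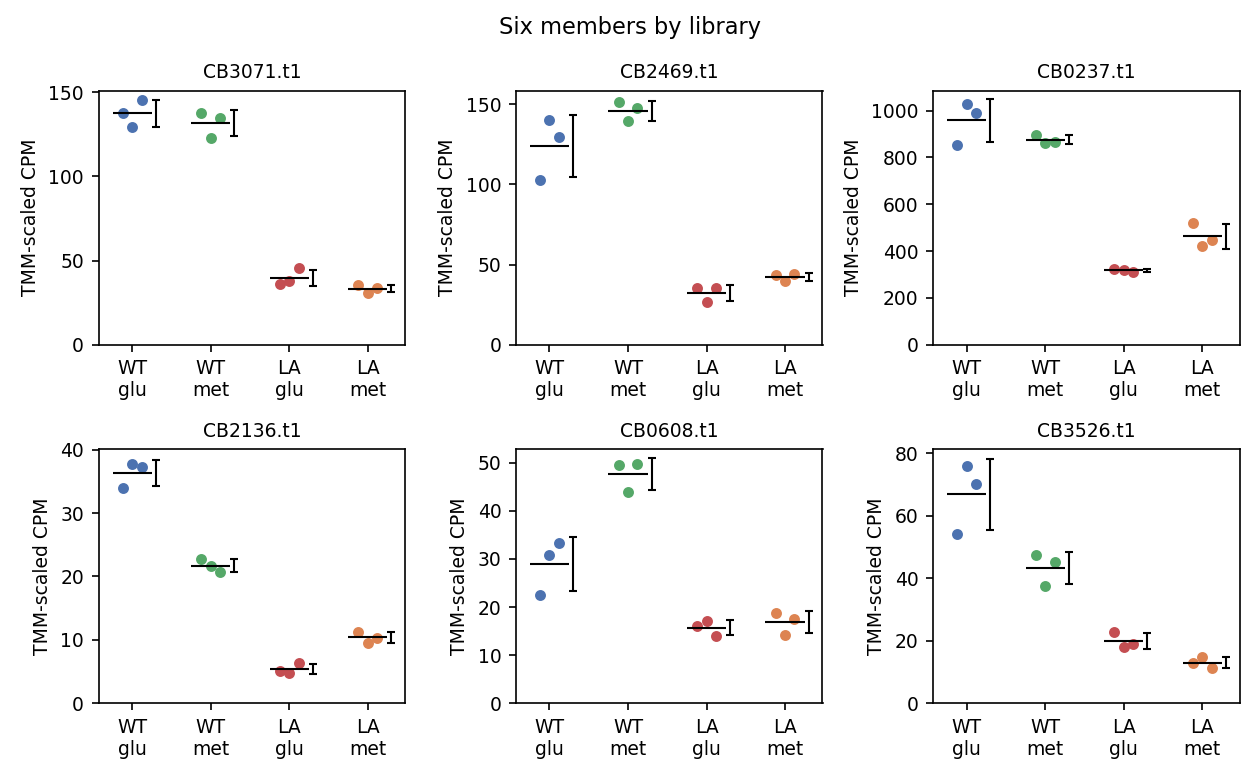
TMM-scaled CPM of 6 members in each library (points), with the group mean (line) and SD (bar, n = 3); each vertical axis starts at 0. CB3071.t1 and CB2469.t1 split by strain with smaller steps between carbon sources, CB0237.t1 and CB2136.t1 are lowest in LA001-14 on glucose, CB0608.t1 is highest in wild type on methanol, and CB3526.t1 is lower on methanol in both strains.

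Per length, the members covered a wide range of levels, and the most abundant were CB0237.t1 and CB3317.t1. Averaged over both carbon sources, wild-type FPKM (the authors' reads per coding length and library total) ran from 3.54 to 948 with a median of 60.2, against a median of 35.8 over the 5034 rows. In 4 equal classes of these rows by wild-type FPKM, from lowest to highest, there were 15, 9, 13 and 27 members. In LA001-14 the members' median FPKM was 26.9 on glucose and 33.2 on methanol, against 40.5 and 39.3 over the rows. Per length, the set thus lay above the typical row in wild type and below it in LA001-14. A choice by a low ratio of LA001-14 to wild type favours both. FPKM also divides by length, and the members were short. By reads, averaged over all libraries, their median was 383, against 618 over the rows.

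CB0237.t1 (888 bases, 948 FPKM, rank 189 of 5034 in wild type) held 855, 1028 and 991 CPM in wild type on glucose and 898, 863 and 867 CPM on methanol. LA001-14 had 325, 317 and 312 CPM on glucose and 522, 419.6 and 446 CPM on methanol. In LA001-14 each methanol library was above each glucose library. In wild type the carbon sources overlapped through replicate 1 on glucose, and the fitted methanol response of CB0237.t1 was -0.13 on the log2 scale and not called. Without that library it was -0.22 and called lower, as it was with upper quartile scaling (-0.26) and with library totals (-0.25). The strain difference was 3.01-fold on glucose (log2 -1.59, SE 0.083) and 1.89-fold on methanol (log2 -0.92, SE 0.095).

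For CB3317.t1 (237 bases, 838 FPKM), replicate 1 of wild type on glucose made the strain difference on glucose smaller. That library had 104 CPM, against 235 and 228 CPM in the other two and 254, 249.1 and 244 CPM on methanol. The LA001-14 libraries had 96.8, 98.8 and 88.2 CPM on glucose and 141, 108 and 122 CPM on methanol. On glucose, replicate 1 of wild type lay close to LA001-14 without overlap, and all 3 LA001-14 libraries on methanol were above it. The log2 difference was -0.996 on glucose with an SE of 0.39 (-1.24 for CB3317.t1 without that library), and -1.01 on methanol with an SE of 0.11.

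Carbon source responses of the members were limited by the choice, and within those limits they leaned towards higher levels on methanol. The median log2 response relative to the typical row was 0.30 in wild type (range -0.72 to 0.79) and 0.30 in LA001-14 (range -0.66 to 0.76). It was above 0 in both strains for 41 members, below 0 in both for 10, below 0 in wild type and above 0 in LA001-14 for 8, and the reverse for 5. Replicate 1 of wild type on glucose was the lowest of its group in 49 members, which lowers their wild-type glucose mean. The median wild-type response without that library was not computed, so the lean in wild type may be smaller than given. Across the 64 members, Pearson's r between the wild-type and LA001-14 responses was 0.47 (Spearman's rho 0.46), and r between the values on either carbon source for the strain difference was 0.36 (rho 0.37). These are correlations across genes of the same 12 libraries, cut off by the limits of the choice.

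In wild type, edgeR called 29 members higher and 5 lower on methanol, where 35.0% of all genes tested were called higher and 35.3% lower. In LA001-14 it called 32 higher and 4 lower, where 34.7% and 29.7% of all genes were. The members called higher had a median log2 change of 0.63 (range 0.31 to 0.83) in wild type and 0.64 (range 0.32 to 0.95) in LA001-14. The limits applied to the values used for the choice, with 1 CPM added and the median subtracted, so a fitted change can exceed 0.8. Higher in both strains were 21 members, lower in both 2, and called in neither 18, where 18.7%, 17.5% and 13.9% of all genes tested were. With upper quartile scaling, 19 members were called higher and 7 lower in wild type, and without replicate 1 of wild type on glucose 20 and 8. The shares of all genes called in these settings were not counted. These contrasts were used in the choice too, so nothing is read from the counts.

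CB4021.t1 (804 bases) and CB0106.t1 (2076 bases) had the highest mean methanol response of the set in the values used for the choice. CB4021.t1 stood at 93.0, 82.4 and 97.3 CPM in wild type on glucose and at 156, 143 and 151 CPM on methanol. LA001-14 had 39.9, 42.0 and 45.97 CPM on glucose and 74.6, 74.2 and 73.6 CPM on methanol. The step between carbon sources was nearly the same in both strains, at 1.65-fold in wild type (log2 0.72, SE 0.081) and 1.74-fold in LA001-14 (log2 0.80, SE 0.060), and all 4 groups were separate. CB0106.t1, at a lower level of 8.53 to 30.7 CPM over the 12 libraries, had log2 responses of 0.80 in wild type (SE 0.18) and 0.80 in LA001-14 (SE 0.11).

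CB3526.t1 (1542 bases) had the lowest mean response in the same values, being lower on methanol in both strains. Wild type had 54.2, 75.8 and 70.2 CPM on glucose and 47.3, 37.5 and 45.2 CPM on methanol. LA001-14 had 22.7, 17.9 and 18.9 CPM on glucose and 12.8, 14.7 and 11.2 CPM on methanol. Strain and carbon source each shifted the level without overlap, with log2 responses of -0.62 (SE 0.18) in wild type and -0.61 (SE 0.15) in LA001-14, and strain differences of -1.75 (SE 0.18) on glucose and -1.74 (SE 0.15) on methanol. CB3499.t1 (1296 bases) was next by mean response. It was lower on methanol in wild type, at 148, 122 and 147 CPM against 201, 256 and 229.7 CPM on glucose, while in LA001-14 it stood at 67.5 to 73.0 CPM over all 6 libraries.

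For most members the strain difference was of similar size on both carbon sources. The difference on methanol minus that on glucose lay within 0.3 of 0 for 42 members, above 0.3 for 16 and below -0.3 for 6. A strain difference in the methanol response was called higher in LA001-14 for 9 members and lower for 2 by edgeR, where 30.8% and 27.9% of all genes tested were called. The limits on the response in each strain, which the choice set, keep this difference small. With RLE scaling the counts were 8 higher and 4 lower, and with library totals 12 and 1, without a count of all genes called beside them.

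Among the 9, CB1545.t1 (912 bases) came after CB2136.t1 in size. It had 138.2, 139 and 153 CPM in wild type on glucose and 124, 116 and 161 CPM on methanol, which overlap. In LA001-14 it had 34.5, 38.8 and 40.8 CPM on glucose and 69.8, 61.2 and 61.8 CPM on methanol, which do not. Its strain difference was 3.76-fold on glucose and 2.07-fold on methanol. The opposite case was CB0608.t1 (714 bases), at 22.6, 30.9 and 33.4 CPM in wild type on glucose, 49.5, 43.9 and 49.7 CPM in wild type on methanol, 15.99, 17.1 and 13.95 CPM in LA001-14 on glucose and 18.8, 14.2 and 17.6 CPM in LA001-14 on methanol. Wild type separated the carbon sources and LA001-14 did not, and the strain difference was 1.84-fold on glucose and 2.81-fold on methanol. CB4334.t1 (1497 bases) had the lowest difference between the responses in the values used for the choice, and a fitted value of -0.72 on the log2 scale (SE 0.41) that was not called, though it was without replicate 3 of LA001-14 on methanol (-0.89). It rests on 30 to 231 reads per library.

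Coding length was not part of the choice, and the members were short. Their median coding length was 898.5 bases (interquartile range 519 to 1346), against 1467 bases (906 to 2330) over the 5034 rows. With the rows divided by length into 4 classes of nearly equal size, 32 of the 64 fell in the shortest class (up to 906 bases), 19 and 11 in the next ones and 2 in the longest (2331 bases and over). Under 600 bases were 29.7% of members and 11.7% of rows. The 107 rows lower on both carbon sources but outside the carbon limits had a median of 1233 bases, and the 34 rows higher on both with the same limits had 2150. No test of these differences was made.

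The strain difference moved with coding length over all rows as well. From the shortest class to the longest, the median difference on glucose was -0.21, 0.02, 0.09 and 0.10 on the log2 scale, and on methanol -0.19, -0.08, 0.03 and 0.22. The share of rows at or below -0.8 on both carbon sources was 5.15%, 4.14%, 3.26% and 1.03%, and the share at or above 0.8 on both was 1.19%, 2.55%, 3.82% and 4.37%. Libraries of one group differed by length too: against the other two, replicate 1 of wild type on glucose had a median of -0.11 in the shortest class and 0.09 in the longest, and replicate 1 of LA001-14 on methanol had 0.08 and -0.12. Without replicate 1 of wild type on glucose, 80 genes met the limits, with a median of 856.5 bases and 44 in the shortest class. The shortest class of all rows then had a median strain difference on glucose of -0.26 and the longest of 0.14. With the medians subtracted within each length class, an alternative added after seeing these values, 55 genes met the limits, 43 of them among the 64, with a median of 1065 bases and 34.5% in the shortest class. The part of length in the members' lower levels was not tested. Among members, from the shortest class to the longest, the median strain differences were -1.04, -1.19, -1.30 and -1.03 on glucose and -1.06, -1.04, -1.03 and -1.15 on methanol. The choice cut these values off at -0.8 and the longest class has 2 members, so nothing about length is read from them.

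**Figure D4:**
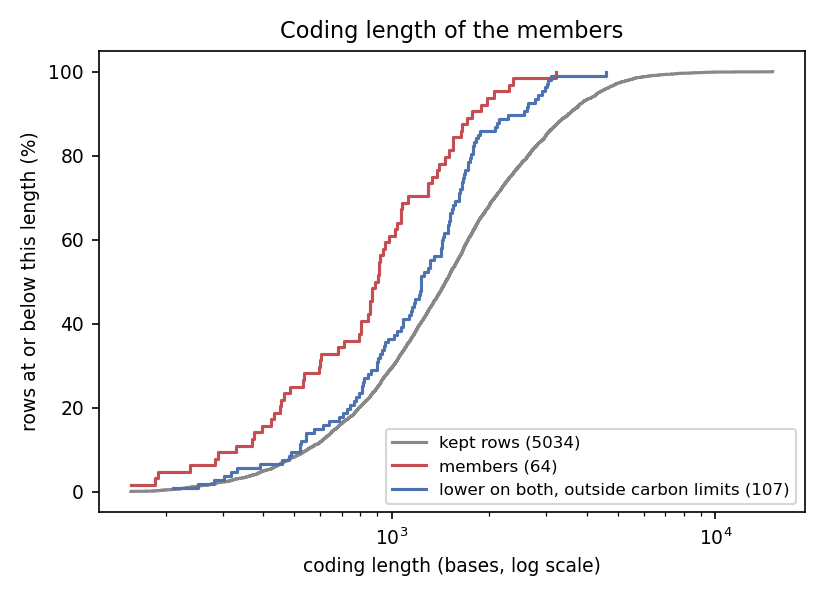
Cumulative share of rows (%) by coding length (bases, log scale) for the 64 members, the 107 rows lower on both carbon sources outside the carbon limits, and the 5034 rows kept. The members' line lies left of the others over most of its course, with medians of 898.5, 1233 and 1467 bases.

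The members' identifier numbers were scattered from 106 to 5472. A single pair was consecutive, CB4986.t1 (1119 bases) and CB4987.t1 (597 bases), and no run was longer than 2. On glucose, CB4986.t1 averaged 258 ± 19.3 CPM in the wild-type libraries against 85.9 ± 14.6 CPM in those of LA001-14, and on methanol 282 ± 24.8 against 133 ± 7.85 CPM (SD, n = 3). CB4987.t1 was far lower, at 7.45 ± 1.71 and 2.99 ± 0.77 CPM on glucose, and its 12 libraries lay between 21 and 103 reads. The 113 kept rows whose number lies next to a member's had a median strain difference of -0.07 on glucose and -0.07 on methanol. Of these neighbours 32.7% were below 0 on both carbon sources, against 29.4% of all rows. At or below -0.8 on both were 4 of the 113, against 171 of the 5034 rows. The figures for all rows include the members, and the neighbours do not. Whether the numbers follow the order of genes on chromosomes is not given in the sources used here.

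Replicates of the members spread somewhat more than those of the typical row, most in the glucose groups. The median coefficient of variation was 13.7% in wild type on glucose, 7.16% in wild type on methanol, 14.1% in LA001-14 on glucose and 9.79% in LA001-14 on methanol, against 9.47%, 6.92%, 8.76% and 7.29% over the 5034 rows. The members had fewer reads, with a median of 383 (mean over libraries) against 618, and the lowest single count of a member was 12 reads. CB1867.t1 (190 bases, a length that is not a multiple of 3) lay in the middle of the set by its strain differences, but not by its spread. Its libraries spread more than those of the median member on glucose, with 25.1 ± 10.5 CPM (SD) in LA001-14. It had 47.1, 70.96 and 52.6 CPM in wild type and 22.2, 16.4 and 36.7 CPM in LA001-14 on glucose, and 102, 76.99 and 84.6 against 42.8, 38.6 and 46.8 CPM on methanol. The strains did not overlap on either carbon source, and its log2 difference was -1.19 (SE 0.38) on glucose and -1.04 (SE 0.15) on methanol.

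On glucose the strains overlapped in 3 members, CB0432.t1, CB2192.t1 and CB4840.t1, each through replicate 1 of wild type. These genes were named after their values were seen. CB0432.t1 (156 bases) had 24.1 CPM in that library against 68.99 and 57.4 CPM in the other two, and LA001-14 lay between 21.9 and 30.1 CPM. CB2192.t1 (375 bases) had 3.08 CPM against 8.36 and 10.99 CPM, and 5.47, 4.39 and 1.62 CPM in LA001-14. CB4840.t1 (291 bases) had 40.9 CPM against 82.8 and 76.6 CPM, and 42.7, 32.0 and 37.5 CPM in LA001-14. In all 3 the other wild-type libraries lay above every LA001-14 library.

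The edge of the set was crowded. CB4840.t1 and CB0936.t1 (792 bases) lay just inside, with values of -0.81 and -0.97 for the former and -0.82 and -0.81 for the latter on glucose and methanol. Just outside were CB0953.t1 at -0.80 on glucose (unrounded above the limit) and -1.05 on methanol, and CB1328.t1 at -1.31 and -0.79. Within 0.1 of the limit by the larger of their differences were 17 members, and 29 other rows within the carbon limits lay less than 0.1 beyond it.

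Libraries left out of the choice gave lower values in LA001-14 as well, for most of the genes chosen without them. They are further replicates of the same groups and the same single strain, and the choices share libraries. The values therefore describe only how far libraries of this series agree. When replicate 1 of every group was left out of the choice, 80 genes met the limits, 57 of them among the 64. In the left-out libraries those 80 had a median log2 difference of -0.89 on glucose (range -1.98 to 0.65) and -1.01 on methanol (range -2.41 to -0.42), and 76 were below 0 on both. Without replicate 2 there were 49 genes, 44 of them members, with left-out medians of -1.40 on glucose and -1.11 on methanol and with 49 of 49 below 0 on both. Without replicate 3 there were 55, of which 43 were members, with left-out medians of -1.30 and -1.04, and 55 of 55 were below 0 on both. Of all rows kept in the same libraries, 27.6%, 29.7% and 29.3% were below 0 on both.

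Fewer genes met the limit again than kept the direction, which is a looser condition. At or below -0.8 on both carbon sources in the left-out libraries were 37 of the 80 genes (46.2%), 39 of the 49 (79.6%) and 39 of the 55 (70.9%), where 2.72%, 3.86% and 3.86% of all rows were. The whole choice, carbon limits included, was met again by 25, 32 and 32 of them. In the first case the left-out libraries include replicate 1 of wild type on glucose, and the left-out median on glucose was smaller in size than the -1.17 of the libraries used. Without replicate 2 or 3 the left-out median on glucose was larger in size, at -1.40 against -1.24 and -1.30 against -1.26. What that library and the choice at a limit each add to such differences was not tested. Each left-out set has 1 library per group, so these values have no replicate check and no test.

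**Figure D5:**
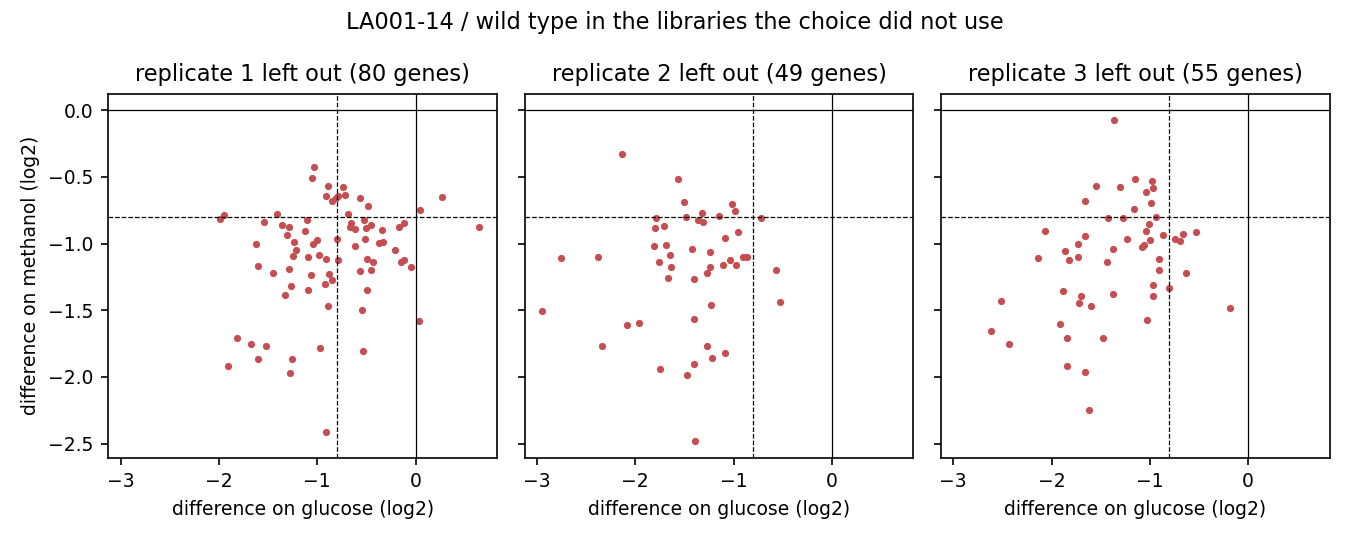
Log2 strain difference (LA001-14 over wild type, relative to the median row) on glucose and on methanol in the left-out libraries, for genes chosen without replicate 1 (80 genes), 2 (49) or 3 (55) of every group; dashed lines mark -0.8. Nearly all points are below 0 on both axes, with 4 exceptions, all with replicate 1 left out.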

How the data were processed

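Messenger RNA was sequenced in 12 libraries of 4 groups with 3 replicates each. The counts are whole reads per coding sequence, deposited without normalization. FPKM values and coding lengths stand beside them, as computed by the authors. The submitters' processing notes name Bowtie2 2.5.4. Which program counted the reads, whether strand was used, and the genome build were not stated in the sources used here. Counts were fitted with edgeR 4.0.16 in R 4.3.3: filterByExpr, TMM scaling, a quasi-likelihood model of the 4 group means over all 12 libraries, and 5 contrasts with Benjamini-Hochberg adjustment over 5466 genes. The fit was run on simulated data with the same spread for every gene and no outlying library. That checks the calculation only, not how well the model suits these libraries. Standard errors come from replicate log2 CPM with 2 reads added. DESeq2 1.42.0 was an alternative. No tool corrected for coding length. Alternatives covered the limits, added CPM, minimum count, scaling, tools and left-out libraries. Totals of 8045977 to 14107813 reads set the counting error, and members had 12 reads or more per library. Members, naming rule and tests were chosen with earlier results of these data known. Named members are the 2 most extreme by each strain difference, by both together, by wild-type FPKM, by methanol response and by its strain difference, those nearest the limits and the medians, and the longest run of identifier numbers.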

Additional observations from a re-analysis of the deposited data

Results flagged for a closer look

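The methanol response of 7 named members differed between the strains by the interaction term of edgeR's fit. The choice of members limited this value and used the same libraries, so it is a description. The response in LA001-14 was higher than in wild type by 1.69 on the log2 scale for CB2136.t1, 0.86 for CB1545.t1, 0.68 for CB4652.t1, 0.67 for CB0237.t1, 0.65 for CB3499.t1 and 0.50 for CB4986.t1, and it was lower for CB0608.t1, at -0.61. The call of CB0608.t1 was lost without replicate 2 of LA001-14 on glucose (-0.55) or on methanol (-0.51), and that of CB4652.t1 without replicate 3 of wild type on glucose (0.47). No group has enough libraries for a check of single outlying values.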

How the results depend on the processing

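The number of members followed the limits of the choice. It was 28 without median subtraction (25 of the 64), 34 with a strain limit of -1, 127 with -0.6, 39 with a carbon limit of 0.6 and 171 with none. It was 48 with 5 CPM added in place of 1 (42 of the 64) and 65 with TMM-scaled CPM (64 of the 64). Leaving out 1 library, or 1 replicate number of every group, gave 49 to 80 members. It was 80 without replicate 1 of wild type on glucose and also 80 without replicate 1 of every group. Without replicate 2 of every group it was 49.

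The choice used these same libraries and set the sign of the members' median differences, so the alternatives bear on their size only. On methanol the median of -1.06 became -1.10 with 0.1 CPM added and -0.94 with 5 CPM. With libraries left out it ran from -1.26 to -1.10 on glucose and from -1.10 to -1.03 on methanol. With libraries left out, members called ranged from 62 to 64 for the strains on glucose, 63 to 64 on methanol, 28 to 37 for methanol in wild type, 32 to 38 in LA001-14 and 9 to 16 for the strain difference in the response. Same-numbered replicates did not deviate together (18 pairs, r from -0.25 to 0.12), and the main fit used no pairing. The labels do not say whether they were handled together, and these correlations cannot exclude it. A fit with the replicate block called 63 members on glucose, 64 on methanol, 34 and 35 for methanol in wild type and LA001-14, and 11 for the strain difference in the response. For the block and the left-out libraries, the shares of all genes called were not counted. Setting aside the 20 most abundant rows raised the members' share of reads to 0.925% and 0.975% in wild type on glucose and methanol and to 0.446% and 0.535% in LA001-14, and leaving out libraries gave 0.692% to 0.730%, 0.756% to 0.772%, 0.353% to 0.364% and 0.438% to 0.447%. The causes were not tested. For single named members in wild type, calls on the methanol response were gained in 9 and lost in 6 combinations of member and setting. In LA001-14 the counts were 2 and 5. Calls of the named members on the strain difference, which the choice required to be large, changed in none of the 361 combinations per carbon source. Depth limits members such as CB4987.t1, with 21 to 103 reads per library.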
